A study of Mus musculus with 12 samples.

Results

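The change in the transcriptome of Zar1/2-null mouse oocytes between the growing stage and the fully grown germinal vesicle (GV) stage was examined in 4 RNA-seq libraries. The genes described are those with at least 1 FPKM (sequenced fragments scaled to transcript length and to the total mapped) in at least 1 of these 4 libraries, 10747 of the 23230 genes listed. Of the 11502 genes with at least 1 FPKM in any of the series' 12 libraries, these make up the large majority. The rule used only detection, not the direction of change. The genes nearest its edge were 2200002D01Rik and Zfp180 just inside, with highest values of 1.000 and 1.001 FPKM, and 4931429P17Rik and Ntf3 just outside, with 0.9998 and 0.9995 FPKM.

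An oocyte grows inside its follicle while it is held in meiotic prophase. Growing oocytes transcribe actively and store mRNA, and transcription falls silent as the oocyte becomes fully grown, so that meiotic maturation and the first embryonic divisions draw on maternal RNA and protein. ZAR1 and ZAR2 are zinc finger RNA-binding proteins of the oocyte cytoplasm, and oocytes without them were used to ask how the store of maternal transcripts depends on them.

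Each library held 10 oocytes and was made by Smart-seq2, an oligo(dT)-primed full-length cDNA method, with synthetic ERCC RNA added at lysis. By the labels, growing oocytes came from 13.5-day-old females, which the methods give as slightly younger, and GV oocytes from 21-day-old females 44 h after PMSG, a gonadotropin that stimulates follicle growth. Stage, age and PMSG can therefore not be told apart. The null females carried constitutive CRISPR/Cas9 alleles of both genes, a frameshifting deletion in the first exon of Zar2 and a small deletion with an early stop codon in Zar1, on a C57BL6/ICR hybrid background that the WT females shared. There were 2 libraries a group, and WT growing and WT GV oocytes, 2 libraries each at the same ages and with the same priming, served as the reference. The deposited FPKM carry no read counts per gene, so no counting interval is given. The sources used here do not say whether the 2 libraries of a group came from separate females, so p-values measure the spread between libraries, which may be technical.

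The targeted genes were inspected first. Zar2, listed as Zar1l, was at 17.5 and 13.2 FPKM in the growing null libraries and 20.9 and 19.6 FPKM in the GV null libraries, against 639 and 644 FPKM in growing and 533 and 504 FPKM in GV WT oocytes. All 4 null libraries were far below all 4 WT libraries. Zar1 mRNA was still present, at 407 and 459.9 FPKM in growing and 136 and 203 FPKM in GV null oocytes, against 603 and 725 FPKM and 439 and 423 FPKM in WT. Because the Zar1 allele ends translation and leaves most of the transcript in place, this level does not check the knockout. It fell during growth of null oocytes, with a log2 fold change of -1.38 ± 0.20 (SE).

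The 12 oocyte markers (zona pellucida genes, Gdf9, Bmp15, Figla, Nobox, Ddx4, Dazl, Oosp1, Ooep and Nlrp5) were at 1 FPKM or more in all 4 null libraries. Of the 16 granulosa and cumulus markers, 4 reached 1 FPKM in any of them, and their summed level was 15 to 23.5 FPKM in growing and 15.8 to 17.6 FPKM in GV oocytes, with Amh and Foxl2 below 0.1 FPKM. The 4 were Cyp19a1, Nr5a2, Inha and Gja1, of which Gja1 was higher in GV (1.47 and 1.33 FPKM) than in growing null oocytes (0.496 and 0.270 FPKM) and Nr5a2 lower (4.01 and 4.31 against 11.5 and 8.18 FPKM). Immune markers summed to 2.72 to 5.44 FPKM over the 4 libraries, from Cd68 and C1qb, with Ptprc at 0, and red blood cell and fibroblast markers stayed below 1 FPKM. Theca and luteal markers summed to 2.29 FPKM at most. Endothelial markers summed to 11.3 to 11.8 FPKM in growing and 5.92 to 5.93 FPKM in GV oocytes, from Pecam1 and Tek, with Cdh5 and Emcn at 0. Epithelial markers summed to 91.3 to 108 FPKM in growing and 24.5 to 29.2 FPKM in GV oocytes. Only Krt8 and Cdh1 of these 7 markers reached 1 FPKM, Krt19 was at 0, and Krt18 did not exceed 0.1 FPKM. The 2 libraries of a stage ranked the genes alike (Spearman's rho over genes 0.976 for growing and 0.972 for GV).

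On the ERCC scale GV null libraries held less captured RNA than growing null libraries. Summed over the 10747 genes, growing null libraries held 565863 and 503104 ERCC-scaled FPKM and GV null libraries 400898 and 421070. Both GV values were below both growing values. The number of genes at 1 FPKM or more was 10194 and 10128 in growing and 9072 and 9112 in GV oocytes. With 10 oocytes in every library, a lower yield from every oocyte and a much lower yield from some cannot be told apart. Oligo(dT) priming captures RNA by its poly(A) tail, so these sums cannot tell loss of RNA from weaker capture. Tail length was not tested.

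Tested with limma on log2(FPKM + 1), with Benjamini-Hochberg adjustment at 0.05 over all 11502 expressed genes of the series, 497 of the 10747 genes rose and 6345 fell, and 3905 were not called. Over all tested genes, 4.76% were called higher and 55.9% lower in GV null oocytes, almost the same set of genes. These calls share 1 spread over all 12 libraries, and in a fit of the 4 null libraries alone 362 genes rose and 4949 fell. The median log2 fold change was -0.55, with quartiles of -0.90 and -0.20. The number of rises leaned on 1 library, since without growing replicate 2 it was 315.

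The size of the general fall depended on the scaling. The authors multiplied each library by a factor, recovered from the deposited digits as 0.862 and 0.779 for growing and 0.533 and 0.583 for GV null oocytes. With these factors divided out and each library set to a common median instead, the median change was -0.0022. Such scaling brings the median near 0 by construction. Taken gene by gene, the ERCC-scaled change minus the median-scaled one had a median of -0.589 on the log2 scale. The added 1 FPKM makes this difference smaller for low genes. On the relative scale of the common median 1868 genes rose and 1924 fell, where 16.9% and 16% of all tested genes were called. With no scaling at all the counts were 1536 and 2432, beside 14.2% and 20.5% over all tested genes, and the median change was -0.11. Of the 497 rises on the ERCC scale 496 were also called higher with median scaling, and of the 6345 falls 1924 were also called lower, and no gene was called in opposite directions. Median scaling raised the changes in general, so the shared rises and the lack of opposite calls are no check. Those 1924 genes fell further than the transcriptome as a whole. The plot of the fold change distribution shows both scales beside WT.

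**Figure D1:**
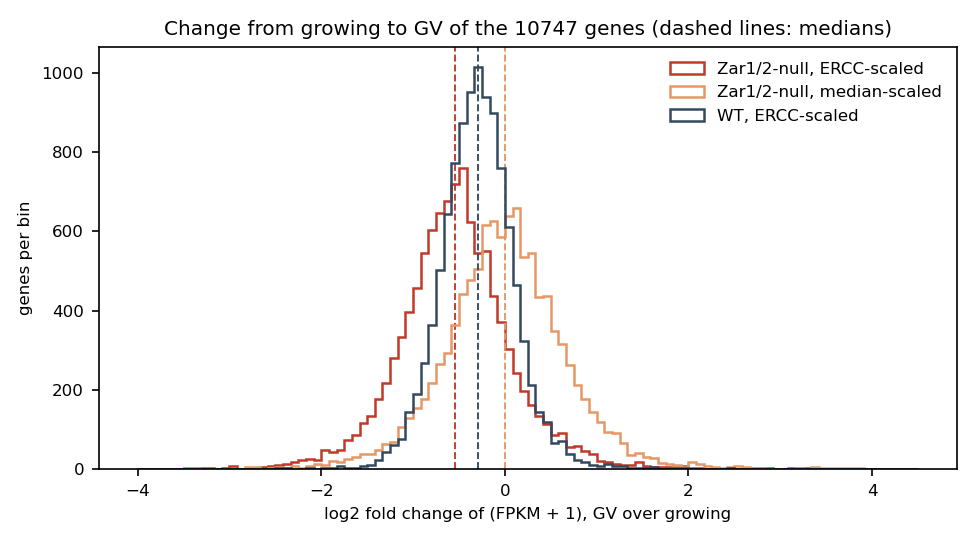
Number of genes (y axis) by log2 fold change of FPKM + 1 from growing to GV (x axis) for the 10747 genes in Zar1/2-null oocytes with ERCC scaling and with median scaling, and in WT oocytes with ERCC scaling. Dashed lines mark the medians, at -0.55, -0.0022 and -0.30, and 5, 8 and 10 genes lie beyond the axis.

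A coarser rule compared group means, with any mean under 1 FPKM set to 1. By it 85 genes were more than 3-fold higher and 829 more than 3-fold lower in GV than in growing null oocytes (0.739% and 7.21% of all tested genes). Of these, 67 and 813 also passed limma, and 68 and 816 had no overlap between the stages, where 9.16% and 68.9% of all tested genes did. The genes were chosen by their means in the same libraries, which favours both, so these counts are a description. Small non-coding RNA genes made up 18 of the rises and 18 of the falls, and they are left out of the largest rises and falls named here. In 214 of the falls the GV mean was at or under 1 FPKM, and in 40 of the rises the growing mean was. Without growing replicate 1 the rises numbered 136.

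Many stored maternal mRNAs are translated when CPEB binds a cytoplasmic polyadenylation element near the 3′ end and the tail is lengthened, so the last 100 bases of each gene's longest coding transcript (GENCODE M1, mm9) were read for TTTTAT or TTTTAAT on the transcript strand alone. Of genes that rose, 59 of 361 with such an end (16.3%) held an element, against 19.4% of 5788 that fell, 21.6% of 3087 not called and 17.6% of all annotated genes. The order turned with median scaling, with 22.2% of genes called higher and 18% of genes called lower. The polyadenylation signal AATAAA or ATTAAA was found in 78.9%, 80.6% and 80.1% of the genes that rose, fell and were not called, and in 78.4% of all annotated genes. Among the 12 largest rises described next, the element was present in 2 of the 10 with an annotated end, Srgn and Cxcr3, and among the 12 largest falls in 0 of 11. TTTTAT can overlap ATTAAA, and a match of these letters is not a tested binding site.

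The windows below hold the element of 2 genes that rose (Srgn and Cxcr3), 2 that were not called on the ERCC scale (Btg4 and Cnot7, parts of the deadenylation machinery) and 2 that fell (Gdf9 and Polr2h). Each runs 5′ to 3′ in mm9, with the element and, where it lies in the window, the polyadenylation signal in capitals. Srgn is at chr10:61956644-61956673 on the minus strand, with 75 bases from the element to the 3′ end. Cxcr3 is at chrX:98926907-98926936 on the minus strand, with 45 bases from the element to the 3′ end. Btg4 is at chr9:50927902-50927931 on the plus strand, with 61 bases from the element to the 3′ end. Cnot7 is at chr8:41578390-41578419 on the minus strand, with 14 bases from the element to the 3′ end. Gdf9 is at chr11:53251364-53251393 on the plus strand, with 33 bases from the element to the 3′ end. Polr2h is at chr16:20722306-20722335 on the plus strand, with 19 bases from the element to the 3′ end.
Srgn: aatatataataaTTTTATaatacagtatat
Cxcr3: atatttgcccaaTTTTATttctagaaacct
Btg4: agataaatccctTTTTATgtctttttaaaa
Cnot7: ttaaggtacaTTTTATatcAATAAAaatac
Gdf9: gtggTTTTATgtgacggaagAATAAActgt
Polr2h: atatgattttTTTTATTAAAgttttctttt

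The windows of Cnot7, Gdf9 and Polr2h hold both motifs, and in Polr2h they run together. Genes with an element were thus found among rises, falls and genes that were not called.

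The 12 largest rises (among protein-coding and other long genes at 10 FPKM or more in the higher stage, called by limma and with no overlap between the stages) spanned log2 fold changes of 2.1 to 4.24, and 153 genes met those conditions. They were led by Srgn, Il17b and Vamp8, whose products belong to secretory granules, cytokine signalling and vesicle fusion. All 12 stayed called, in the same direction, under each alternative fit computed for single genes, the largest adjusted p on the ERCC scale being 0.00161 (limma, Benjamini-Hochberg). Dividing out the ERCC factors raised log2 fold changes in general, so median scaling and no scaling are no check on rises.

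Srgn, which encodes the proteoglycan serglycin of secretory granules (chr10:61956581-61990199, mm9), was at 0.206 and 0.153 FPKM in growing and 18.2 and 25 FPKM in GV null oocytes. The growing values lay below 1 FPKM and the GV values well above, a log2 fold change of 4.24 ± 0.26 (SE, adjusted p = 1.37e-06, limma). In WT the order was the opposite, 16.9 and 15.3 FPKM in growing and 2.71 and 1.67 FPKM in GV oocytes. Srgn is also abundant in leukocytes. Of their 7 markers Ptprc was at 0 in all 4 null libraries. C1qb was at 1.77 and 0.458 FPKM in growing and 1.73 and 2.72 FPKM in GV null oocytes. Cd68 was at 3.02 and 3.07 FPKM in growing and 0.865 and 2.64 FPKM in GV null oocytes. In WT oocytes C1qb was higher, at 19.6 and 23.7 FPKM in growing and 10.4 and 11.1 FPKM in GV. Cd68 in WT was at 0.996 and 0.458 (growing) and 1.56 and 0.655 (GV) FPKM. The part of leukocytes in the Srgn values of either genotype was not tested. Il17b, a cytokine of the interleukin-17 family, was at 3.42 and 2.76 FPKM in growing and 69.2 and 63.9 FPKM in GV null oocytes. Its libraries did not overlap (log2 fold change 4.05 ± 0.14, adjusted p = 6.47e-08, limma). WT oocytes held it near the null GV level at both stages, 77.3 and 77.4 FPKM in growing and 64.2 and 54.7 FPKM in GV.

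Vamp8, a SNARE protein of endosomes and secretory vesicles (chr6:72335217-72340697), was at 18.1 and 21.2 FPKM in growing and 197 and 176 FPKM in GV null oocytes. Every GV value exceeded every growing value (log2 fold change 3.19 ± 0.20, adjusted p = 1.61e-06, limma), and the GV level was above that of WT GV oocytes, 97.3 and 112 FPKM. Pnpla3, a lipid droplet hydrolase, was listed at 0.358 and 0.416 FPKM in growing and 5.66 and 21.1 FPKM in GV null oocytes. The GV libraries differed widely from each other, and both stayed far below the 164 and 188 FPKM of growing and 121 and 104 FPKM of GV WT oocytes. Cxcr3, a chemokine receptor, went from 0.594 and 0.758 to 7.49 and 14.2 FPKM and so from below 1 FPKM to the range of WT GV oocytes, 16.7 and 12.1 FPKM.

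Tex15, needed for double-strand break repair in male meiosis, was at 0.296 and 0.458 FPKM in growing and 13.7 and 6.93 FPKM in GV null oocytes. It was below 1 FPKM in all 4 WT libraries, so the GV null oocytes alone held it above that level. The uncharacterised gene 1190007I07Rik also stood highest in GV null oocytes, with 2.03 and 3.41 FPKM in growing and 20.5 and 25.2 FPKM in GV null oocytes, against 2.75 and 2.88 (growing) and 4.52 and 4.38 (GV) FPKM in WT. Dnajc5b, a cysteine string protein of the DnaJ family, went from 2.62 and 0.842 to 18.6 and 14.9 FPKM, and Slc23a3, of the ascorbate transporter family, from 10.2 and 8.22 to 49.0 and 38.9 FPKM. Lmo3, a LIM-domain transcription cofactor, went from 2.88 and 1.42 to 11.7 and 12.5 FPKM and Gm17830 from 2.42 and 1.79 to 24.0 and 14.9 FPKM. Nmu, the neuropeptide neuromedin U, went from 8.03 and 2.01 to 23.7 and 19.5 FPKM. Its 2 growing libraries were far apart, and without growing replicate 2 its log2 fold change of 2.11 was 1.32.

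In growing oocytes most of these 12 genes were lower in null than in WT. There both null libraries were below both WT libraries for 10 of them, and at the GV stage 5 were above WT, 2 below and 5 overlapped. Over all tested genes the null libraries were below WT for 47.4% in growing and 63.6% in GV oocytes, and above WT for 22.4% and 6.79%. Choosing genes by a large rise favours low growing values, so these counts are a description.

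**Figure D2:**
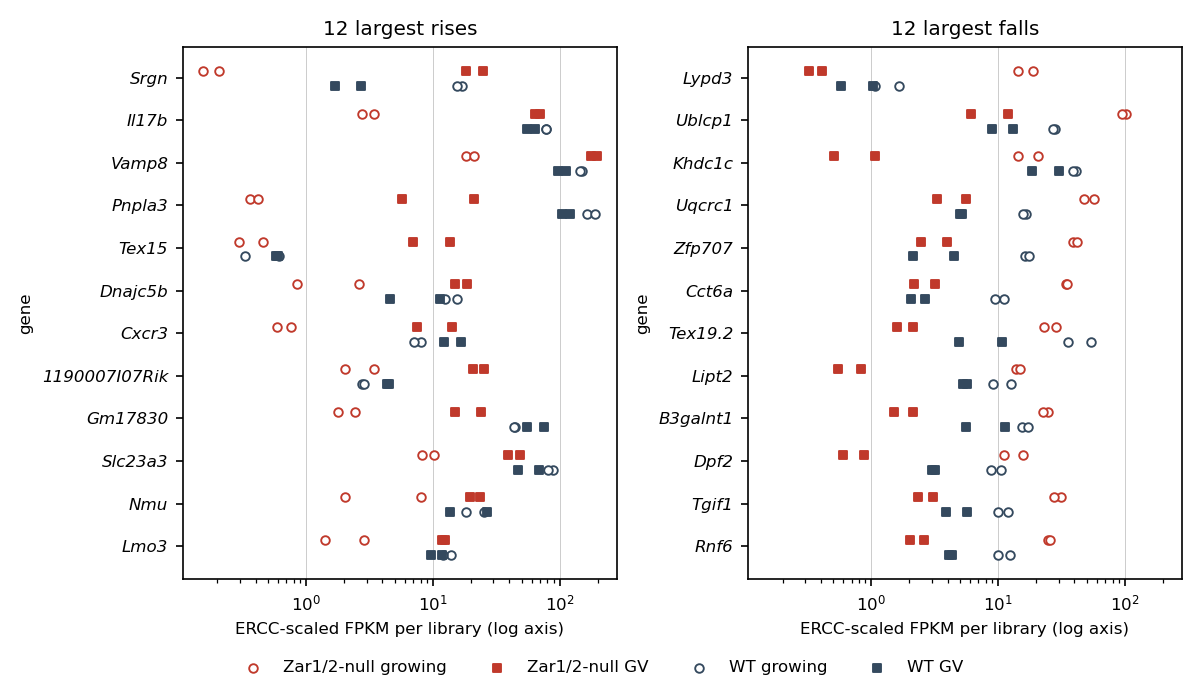
ERCC-scaled FPKM in each library (log x axis) for the 12 largest rises and the 12 largest falls from growing (open circles) to GV (filled squares) in Zar1/2-null oocytes, with the WT libraries below each pair. Among the rises 10 genes had both growing null libraries below WT, and among the falls 10 had both above WT.

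The 12 largest falls, taken from 3047 genes that met the same conditions, had log2 fold changes of -3.68 to -2.98, and all 12 stayed called with median scaling (-3.49 to -2.49). They encode proteins of many kinds, among them a chaperonin subunit, a respiratory chain core protein, chromatin and transcription factors and a ubiquitin ligase.

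Lypd3, a GPI-anchored protein of the Ly6 family (chr7:25421589-25426135), was at 14.3 and 19.0 FPKM in growing and 0.325 and 0.409 FPKM in GV null oocytes. The stages did not overlap (log2 fold change -3.68 ± 0.18, adjusted p = 8.03e-07, limma), and only the growing null libraries stood high, since WT oocytes were at 1.06 and 1.65 FPKM in growing and 1.03 and 0.575 FPKM in GV. Ublcp1, a phosphatase that acts on the nuclear proteasome (chr11:44268073-44284000), went from 102 and 94.8 to 6.06 and 11.9 FPKM. Growing null oocytes again stood above WT, at 28.1 and 26.9 FPKM, and by the GV stage the null values reached the range of WT, 13.0 and 8.90 FPKM. The same order was seen for Uqcrc1, a core subunit of respiratory complex III, with 47.6 and 57.4 FPKM in growing and 3.32 and 5.58 FPKM in GV null oocytes, and 16.6 and 15.8 (growing) and 5.18 and 5.0 (GV) FPKM in WT.

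Cct6a, a subunit of the cytosolic chaperonin, went from 34.4 and 34.8 to 2.15 and 3.21 FPKM, and the zinc finger gene Zfp707 from 38.7 and 41.6 to 2.47 and 3.98 FPKM. Tgif1, a homeobox repressor of TGF-beta signalling, went from 31.3 and 27.5 to 2.33 and 3.06 FPKM, Rnf6, a ubiquitin ligase, from 24.9 and 25.5 to 2.03 and 2.63 FPKM, and Dpf2, a BAF chromatin complex subunit, from 11.2 and 15.8 to 0.597 and 0.874 FPKM. For all 5 the growing null libraries were above the growing WT libraries. Lipt2, which attaches octanoyl groups for lipoic acid synthesis, went from 13.8 and 14.9 to 0.543 and 0.827 FPKM, and the glycosyltransferase gene B3galnt1 from 24.6 and 22.7 to 2.13 and 1.5 FPKM. Both ended below the GV WT libraries, which held 5.25 and 5.71 FPKM of Lipt2 and 11.3 and 5.55 FPKM of B3galnt1.

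Khdc1c and Tex19.2 differed from the other falls in that growing null oocytes were below WT. Khdc1c, of a KH-domain family, was at 20.5 and 14.4 FPKM in growing and 0.507 and 1.08 FPKM in GV null oocytes, against 41.4 and 38.7 (growing) and 30.4 and 18.4 (GV) FPKM in WT, and the GV null libraries held the lowest values of the 8. Tex19.2 was at 22.9 and 28.4 FPKM in growing and 1.59 and 2.13 FPKM in GV null oocytes, against 35.3 and 54.3 (growing) and 10.7 and 4.96 (GV) FPKM in WT. Of the 12 falls, 10 had both growing null libraries above both WT libraries, where 22.4% of all tested genes did. At the GV stage 8 were below WT and 4 overlapped, and 63.6% of all tested genes were below WT there, a like share. As with the rises, the choice of large falls favours high growing values.

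Of the 5 most abundant transcripts of each stage 3 were the same, Gm15698, E330017A01Rik and H1foo, the oocyte linker histone. Gm15698 was at 6841 and 6341 FPKM in growing and 5559 and 5310.2 FPKM in GV null oocytes, and H1foo at 4814 and 4273 (growing) and 2985 and 3874 (GV) FPKM. Neither was called, nor was E330017A01Rik at 4904 and 3957 (growing) and 4407 and 3694 (GV) FPKM, whose stages overlapped. With median scaling all 3 had positive log2 fold changes (0.40, 0.26 and 0.55), so their direction rests on the scale. Dppa5a, an RNA-binding protein of pluripotent and germ cells, fell from 5265 and 5103 to 2467 and 2074 FPKM on both scales, and Ldhb, a lactate dehydrogenase subunit, from 4992 and 4431 to 2436 and 3074 FPKM on the ERCC scale only.

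Oosp1, an oocyte-secreted protein, joined the 5 highest at the GV stage with 3284 and 3002 FPKM, after 2432 and 1711 FPKM in growing oocytes. Its rise of 0.62 ± 0.21 on the log2 scale (SE) passed limma (adjusted p = 0.0251) and was 1.3 with median scaling, but it missed the threshold without growing replicate 2, GV replicate 1 or GV replicate 2 (0.37 to 0.88). Mir762, a microRNA gene, was listed at 2473 and 5730.5 FPKM in growing and 2824 and 4726 FPKM in GV oocytes, and its stages overlapped.

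Genes were next grouped by role. Each list's count stands beside the median of all 10747 genes, -0.55, and beside its calls with median scaling. Over all tested genes 4.76% rose and 55.9% fell, so a list with a like share says nothing particular to it, and no test compares a list with other genes. The plot of list medians gives all 28 lists with WT.

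**Figure D3:**
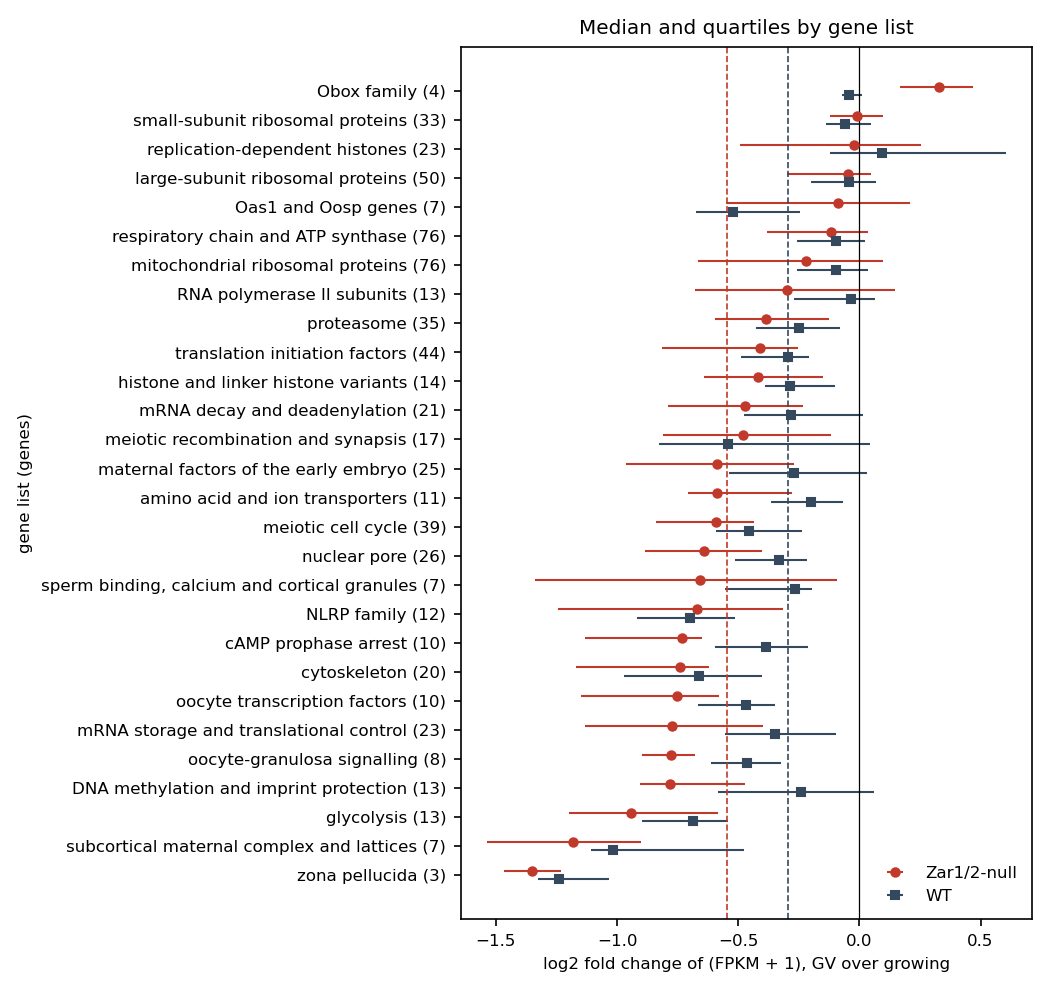
Median (points) and quartiles (bars) of the log2 fold change of FPKM + 1 from growing to GV (x axis) for 28 gene lists (y axis, number of genes in brackets) in Zar1/2-null and WT oocytes. Dashed lines are the medians of all genes, -0.55 in null and -0.30 in WT, with the zona pellucida list lowest at -1.35 and the Obox family highest at 0.33 in null oocytes.

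Genes for the oocyte's coat and cortex had the lowest medians of the 28 lists. All 3 zona pellucida genes, which encode the glycoproteins of the egg coat, fell, with a list median of -1.35. Zp2 was at 3472 and 3129 FPKM in growing and 1169 and 1427 FPKM in GV null oocytes, Zp1 at 1403 and 1361 (growing) and 366 and 581 (GV) FPKM and Zp3 at 3662 and 3508 (growing) and 1386 and 1984 (GV) FPKM. The stages did not overlap for any of the 3. With median scaling Zp1 and Zp2 stayed called and Zp3 did not (-0.43, adjusted p = 0.0726, limma). In WT oocytes the 3 genes fell as well (list median -1.24), where 28.7% of all tested genes did.

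The subcortical maternal complex and the cytoplasmic lattices are protein assemblies of the egg that early embryos need, and of their 7 listed genes 6 fell (median -1.18, and 1 higher and 3 lower with median scaling). Padi6 went from 2518 and 2777 to 717 and 1019 FPKM, Nlrp5 from 482 and 574 to 177 and 165 FPKM, Tle6 from 973 and 1105 to 291 and 488 FPKM and Zbed3 from 2154 and 2464 to 946 and 1088 FPKM. Ooep was the exception, with overlapping stages at 1898 and 1559 (growing) and 1899 and 1727 (GV) FPKM, so that partners of 1 complex did not move alike. Of the wider NLRP family 0 rose and 8 fell of 12 genes, with a median log2 fold change of -0.67, and 3 higher and 4 lower with median scaling. Nlrp14 went from 2224 and 1918 to 753 and 931 FPKM and Nlrp9b from 223 and 198 to 87.4 and 91.1 FPKM, while Nlrp4e stood at 52.4 and 51.6 (growing) and 65.5 and 64.6 (GV) FPKM and was not called on the ERCC scale. These paralogs are similar in sequence and, by the methods, reads that map to several places were left out, so single values are uncertain.

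Of the oocyte transcription factors, which drive the genes of the growing follicle's oocyte, 0 rose and 8 fell of 10 genes, with a median log2 fold change of -0.75. Lhx8 went from 131 and 139.7 to 58.2 and 61.1 FPKM, Tbpl2, the oocyte's TATA-binding protein relative, from 29.1 and 25.9 to 5.48 and 7.75 FPKM, and Taf4b from 8.53 and 10.4 to 4.66 and 2.51 FPKM. Nobox went from 637 and 601 to 228 and 369 FPKM and Figla from 119 and 108 to 80.5 and 67.6 FPKM. Those 2 calls were lost when single libraries were left out, Nobox without growing replicate 1 or GV replicate 1 (-1.44 to -0.75 over the 4 libraries) and Figla without any 1 of the 4 (-0.74 to -0.49). Sohlh2 was not called, at 3.32 and 2.46 (growing) and 3.22 and 4.0 (GV) FPKM. With median scaling the list had 2 higher and 3 lower.

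Of the genes through which the oocyte and its granulosa cells signal to each other, 0 rose and 7 fell of 8 genes, with a median log2 fold change of -0.78. Gdf9, the growth factor that directs granulosa cells, went from 3695 and 3378 to 1252 and 1796 FPKM, and its relative Bmp15 from 1347 and 1125 to 778 and 796 FPKM. The Bmp15 call was lost without growing replicate 1 or GV replicate 1 (-0.78 to -0.52). Kit, the receptor for the granulosa Kit ligand, went from 42.5 and 50.6 to 26.4 and 24.4 FPKM and Ctnnb1, beta-catenin, from 63.5 and 62.1 to 29.4 and 30.3 FPKM. On the relative scale the list had 0 higher and 2 lower, and Kit and Bmp15 were no longer called (-0.19 and 0.031).

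Deadenylation and decay of maternal mRNA begin with meiotic maturation. Of the genes for this machinery 0 rose and 11 fell of 21 genes, with a median log2 fold change of -0.47, a share of falls near that of all tested genes (55.9%). Btg4, the adaptor that brings the CCR4-NOT deadenylase to maternal mRNA, stood at 1839 and 1427 FPKM in growing and 1699 and 1853 FPKM in GV null oocytes, with overlapping stages. It was not called on the ERCC scale but was called higher with median scaling (0.81, adjusted p = 0.0122, limma) and without scaling (0.69). Cnot7, a catalytic deadenylase, stood at 89.0 and 67.7 (growing) and 93.3 and 118 (GV) FPKM and was not called on the ERCC scale, but was called with median scaling (1.11, adjusted p = 0.00110, limma) and without scaling. Parn and Rqcd1, another deadenylase and a CCR4-NOT subunit, fell, from 19.7 and 20.8 to 8.86 and 11.8 FPKM and from 31.5 and 27.6 to 12.9 and 15.7 FPKM. These 2 calls were absent with median scaling (-0.29 and -0.36), where the list had 4 higher and 1 lower.

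Among genes of mRNA storage and translational control 1 rose and 15 fell of 23 genes, with a median log2 fold change of -0.77. The rise was Pabpn1l (chr8:125143371-125146639), the nuclear poly(A)-binding protein relative of oocytes and early embryos, at 201 and 207 FPKM in growing and 492 and 619 FPKM in GV null oocytes. Both GV values were above all 4 WT values, the lower of them narrowly, and WT oocytes held 489 and 469 FPKM in growing and 289.9 and 308 FPKM in GV. Patl2, a repressor of mRNAs in growing oocytes, went the other way, from 165 and 148 to 24.2 and 37.8 FPKM (log2 fold change -2.33 ± 0.21, adjusted p = 9.55e-06, limma). Pabpc1l, the embryonic poly(A)-binding protein, fell from 93.1 and 107 to 31.8 and 44.3 FPKM. With median scaling the list had 3 higher and 5 lower.

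For the meiotic cell cycle 0 rose and 27 fell of 39 genes, with a median log2 fold change of -0.59. Wee1, a kinase that restrains CDK1, went from 18.2 and 20.2 to 5.68 and 3.58 FPKM, and Fzr1, the APC/C activator that helps to hold prophase arrest, from 53.4 and 75.4 to 23.3 and 26.0 FPKM. Smc1b, the meiotic cohesin subunit, went from 12.5 and 13.4 to 4.68 and 5.03 FPKM. Mad2l1 of the spindle checkpoint stood at 189 and 145 (growing) and 159.7 and 169 (GV) FPKM and the kinase gene Aurkc at 57.2 and 61.1 (growing) and 64.4 and 82.7 (GV) FPKM, and neither was called on the ERCC scale. With median scaling the list split into 6 higher and 4 lower. Of the genes that keep cAMP high in arrested oocytes 0 rose and 8 fell of 10 genes, with a median log2 fold change of -0.73, with 0 higher and 2 lower on the relative scale. Gpr3, the receptor that sustains cAMP, went from 18.6 and 26.6 to 8.89 and 9.02 FPKM and Prkar1a, a regulatory subunit of protein kinase A, from 33.5 and 34.7 to 12 and 14.5 FPKM.

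Meiotic recombination and synapsis, which are completed before birth, made the list with the most rises, since 4 rose and 8 fell of 17 genes, with a median log2 fold change of -0.48. The rises were Tex15, already described, Hormad1, Tex11 and Tex12, the last named after its values were seen. Hormad1, a protein of the chromosome axis, was at 22.6 and 7.93 FPKM in growing and 59.2 and 60.0 FPKM in GV null oocytes, where the growing libraries differed from each other but both were below both GV libraries. Without growing replicate 2 its log2 fold change of 2.06 was 1.36. Tex12, of the synaptonemal complex, went from 61.3 and 50.9 to 116 and 101 FPKM and Tex11 from 2.43 and 1.3 to 6.23 and 4.48 FPKM. Msh4 and Ccdc79 fell, from 12.5 and 11.4 to 5.79 and 6.22 FPKM and from 11.5 and 8.14 to 3.73 and 3.90 FPKM. On the relative scale the list had 5 higher and 1 lower. In WT oocytes 0 of its genes rose and 8 fell, beside 2.77% and 28.7% of all tested genes.

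Imprints are laid down while oocytes grow, and of the genes for DNA methylation and its protection 0 rose and 10 fell of 13 genes, with a median log2 fold change of -0.78. Kdm1b, the histone demethylase that maternal imprinting needs, went from 145 and 162 to 49.4 and 40.2 FPKM, Ctcf, the insulator protein, from 20.5 and 21.5 to 8.90 and 6.72 FPKM and Uhrf1 from 154 and 186 to 87.6 and 85.0 FPKM. Kdm1b and Ctcf were also called lower with median scaling (-1.10 and -0.72), Uhrf1 was not, and the list had 1 higher and 2 lower. Dppa3, which shields the maternal genome after fertilization, stood at 2186 and 1911 (growing) and 2245 and 1832 (GV) FPKM, with overlapping stages.

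Histone variants split. Of 14 genes 1 rose and 7 fell (5 higher and 1 lower with median scaling), and H2afv and H2afz, which encode the closely related forms of histone H2A.Z, went in opposite directions. H2afv was at 22.9 and 19.9 FPKM in growing and 34.6 and 30.4 FPKM in GV null oocytes, and H2afz at 106 and 109 (growing) and 26.7 and 24.6 (GV) FPKM. The stages of neither gene overlapped, and both were called in these directions with median scaling. The H2afv call was lost without growing replicate 2 or GV replicate 1 (0.48 to 0.68). Npm2, the histone chaperone of the egg, fell from 1927 and 1809 to 1036 and 1126 FPKM on the ERCC scale. Of the replication-dependent histones 2 rose and 5 fell of 23 genes, with a median log2 fold change of -0.022 (7 higher and 3 lower with median scaling). The rises were Hist1h2ba, a histone H2B of germ cells, from 0.841 and 0.622 to 7.2 and 4.41 FPKM, and Hist1h2bk, named after its values were seen, which went from 0.855 and 0 to 1.05 and 2.39 FPKM and lost its call without growing replicate 2 or GV replicate 2 (0.51 to 1.40). Hist1h4i fell from 6.83 and 4.21 to 0.835 and 1.91 FPKM. Replication-dependent histone mRNAs mostly lack poly(A) tails and oligo(dT) priming records them poorly.

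Of the genes for sperm binding, calcium release and cortical granules 0 rose and 4 fell of 7 genes, with a median log2 fold change of -0.66 (1 higher and 2 lower with median scaling), a share of falls near that of all tested genes. Astl, the cortical granule protease that hardens the egg coat, went from 409.7 and 429 to 74.4 and 154 FPKM and Cd9, the egg membrane protein that gamete fusion needs, from 431 and 382 to 118 and 140.2 FPKM. Folr4, now named Juno, the egg's sperm receptor, stood at 278 and 242 (growing) and 227 and 296 (GV) FPKM with overlapping stages, and its log2 fold change of -0.0016 was 0.67 with median scaling. The maternal factors of the early embryo had 17 falls and 0 rises among 25 genes, and with median scaling 4 higher and 6 lower. Yy1 went from 10.8 and 11.6 to 4.59 and 2.1 FPKM.

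The Obox homeobox family was the list with the highest median (0.33, and 1.01 with median scaling). Obox2 was at 627 and 433 FPKM in growing and 803 and 759 FPKM in GV null oocytes, Obox1 at 722 and 486 (growing) and 787 and 813 (GV) FPKM and Obox5 at 1069 and 784 (growing) and 1049 and 1092 (GV) FPKM. All of the 3 were called higher with median scaling, and Obox2 alone on the ERCC scale, a call that was lost without growing replicate 2, GV replicate 1 or GV replicate 2 (0.32 to 0.85). Obox1 and Obox2 are near-identical copies, and leaving out reads that map to both makes their values uncertain. Among the Oas1 and Oosp genes 1 rose and 2 fell of 7 genes, with a median log2 fold change of -0.087 (4 higher and 0 lower with median scaling). The falls were Oas1c, from 679 and 600.3 to 284 and 454 FPKM, and Oas1e, from 1431 and 1181 to 545 and 890.3 FPKM, and both calls were lost without growing replicate 1 or GV replicate 1 (-1.17 to -0.49 and -1.25 to -0.55).

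Most ribosomal protein genes were not called on the ERCC scale, 41 of the large and 27 of the small subunit. Of the large-subunit ribosomal proteins 2 rose and 7 fell of 50 genes, with a median log2 fold change of -0.048, and of the small-subunit proteins 1 rose and 5 fell of 33 genes, with a median log2 fold change of -0.010. With libraries set to a common median, 33 large-subunit and 21 small-subunit genes rose and 2 and 1 fell. Rpl37 was at 548 and 446 FPKM in growing and 829 and 641 FPKM in GV null oocytes, Rpl36al at 569.8 and 486 (growing) and 902 and 673 (GV) FPKM and Rps28 at 372 and 379 (growing) and 715 and 479 (GV) FPKM. These 3 rises on the ERCC scale were lost without GV replicate 1 or without growing replicate 2, and Rpl36al and Rps28 also without growing replicate 1 (0.37 to 0.74, 0.35 to 0.78 and 0.35 to 0.93). Rpl9 and Rps23 fell, from 76.2 and 67.5 to 34.3 and 28.9 FPKM and from 206 and 185 to 77.6 and 63.1 FPKM, and so did the retrotransposed Rpl10l, from 16.1 and 14.4 to 1.36 and 1.55 FPKM. Rps27 was listed at 383 and 0.716 FPKM in the 2 GV libraries, against 127 and 193 FPKM in growing oocytes, and no direction is drawn from it. Ribosomal protein genes have many processed copies, and reads that also map to a copy were left out.

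For mitochondrial ribosomal proteins 3 rose and 31 fell of 76 genes, with a median log2 fold change of -0.22. The rises were Mrps31, from 76.7 and 53.0 to 117 and 99.3 FPKM, Mrps18c, from 220.2 and 169.6 to 354 and 271 FPKM, and Mrpl35, from 32.0 and 23.9 to 43.4 and 34.9 FPKM. Each lost its call without growing replicate 2 or GV replicate 1 (0.49 to 1.01, 0.48 to 0.87 and 0.28 to 0.68). Mrps34 fell from 9.72 and 8.72 to 0.601 and 1.3 FPKM and Mrpl9 from 137 and 129 to 39.9 and 45.0 FPKM. Of the respiratory chain and ATP synthase genes 0 rose and 19 fell of 76 genes, with a median log2 fold change of -0.12. Atp5e stood at 879.5 and 806 (growing) and 1261 and 956 (GV) FPKM and Uqcrq at 605 and 546 (growing) and 855 and 665 (GV) FPKM, not called on the ERCC scale, while Cyc1 fell from 32.8 and 31.9 to 10.1 and 15.5 FPKM and Uqcrc1 was among the 12 largest falls. On the relative scale the mitochondrial ribosomal list had 38 higher and 4 lower and the respiratory list 43 higher and 5 lower.

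Subunits of RNA polymerase II went both ways, as 1 rose and 5 fell of 13 genes, with a median log2 fold change of -0.30. Polr2d was at 414 and 349 FPKM in growing and 539 and 531 FPKM in GV null oocytes, a rise that was lost without growing replicate 2, GV replicate 1 or GV replicate 2 (0.37 to 0.61). Polr2h, a subunit that all nuclear polymerases share, fell from 23.7 and 22.4 to 2.86 and 3.54 FPKM, while WT oocytes held 25.3 and 24.5 (growing) and 28.1 and 21.1 (GV) FPKM. Polr2m fell from 9.89 and 10.8 to 2.00 and 3.10 FPKM, and Polr2b, the second-largest subunit, from 30.8 and 29.7 to 18.3 and 17.5 FPKM. The list had 6 higher and 2 lower with median scaling, where Polr2b was not called (-0.079).

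Proteasome genes had 0 rises and 13 falls among 35 (8 higher and 3 lower with median scaling). Psmd13 went from 10.3 and 10.9 to 1.40 and 1.91 FPKM and Psmb5 from 309 and 286 to 91.0 and 112 FPKM, and Psma2 stood at 849 and 666 (growing) and 877 and 842 (GV) FPKM. Of translation initiation factors 0 rose and 20 fell of 44 genes, with a median log2 fold change of -0.41 (9 higher and 6 lower with median scaling). Eif1a, which takes part in start codon scanning, went from 6.88 and 6.35 to 1.04 and 0.752 FPKM and Eif4h from 79.6 and 93.0 to 32.7 and 37.7 FPKM, while Eif3k stood at 272 and 256 (growing) and 317 and 292 (GV) FPKM. Eif3j was listed at 13.4 and 20.5 FPKM in growing and 9.51 and 0.0575 FPKM in GV oocytes, and its spread allows no direction. Of nuclear pore genes 0 rose and 21 fell of 26 genes, with a median log2 fold change of -0.64 (1 higher and 3 lower with median scaling), and Nupl1 went from 24.0 and 21.7 to 5.61 and 7.59 FPKM.

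Oocytes depend on granulosa cells for pyruvate and carry out little glycolysis. Of the glycolysis genes 1 rose and 11 fell of 13 genes, with a median log2 fold change of -0.94, and with median scaling 1 higher and 3 lower. Gapdh went from 108 and 113 to 27.3 and 33.5 FPKM and Pgam1 from 6.80 and 7.71 to 1.05 and 1.53 FPKM. The rise, Ldha, named after its values were seen, went from 0.427 and 0.316 to 1.24 and 1.01 FPKM, near the detection rule. In WT oocytes 11 genes of the list fell, where 28.7% of all tested genes did.

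Cytoskeletal genes had 16 falls and 0 rises among 20 (2 higher and 4 lower with median scaling). Actg1, cytoplasmic gamma-actin, went from 359 and 318 to 67.3 and 113 FPKM and the alpha-tubulin gene Tuba1b from 48.8 and 49.3 to 14.4 and 19.4 FPKM. Fmn2 and Spire1, actin nucleators that position the spindle, stood at 13.3 and 11.6 (growing) and 20.1 and 13.2 (GV) FPKM and at 17.8 and 17.9 (growing) and 23.0 and 22.8 (GV) FPKM, not called on the ERCC scale and called higher with median scaling. Krt8, a keratin, fell from 72.8 and 88.0 to 7.04 and 15.1 FPKM, and the growing null libraries were far above the 3.84 and 3.59 FPKM of growing WT oocytes. Its partner Krt18 did not exceed 0.1 FPKM in the 4 libraries. Among amino acid and ion transporters 0 rose and 7 fell of 11 genes, with a median log2 fold change of -0.59 (2 higher and 2 lower with median scaling), with Slc4a7, a bicarbonate cotransporter, going from 5.34 and 4.58 to 1.48 and 1.75 FPKM and Slc3a2 from 70.7 and 62.5 to 35.9 and 47.8 FPKM.

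Growth of null oocytes was then set against growth of WT oocytes, which shares no library with it. WT values also fell on the ERCC scale, with a median log2 fold change of -0.30 over the same 10747 genes. Of these genes 222 rose and 3150 fell (2.77% and 28.7% of all tested genes). Set to a common median, the WT counts were 248 and 226 (2.51% and 1.99% of all). Without scaling they were 336 and 336 (3.5% and 3% of all). The WT counts on the ERCC scale leaned on single libraries, with 144 rises and 1878 falls without growing replicate 1, 107 and 1114 without growing replicate 2, 120 and 2782 without GV replicate 1, and 105 and 814 without GV replicate 2. Of the 497 rises in null oocytes, 81 were called higher and 34 lower in WT, and of the 6345 falls, 2792 were called lower and 27 higher. Across the genes the 2 sets of log2 fold changes had a Pearson's r of 0.463 and a Spearman's rho of 0.585, as a description, since genes of 1 library are not independent.

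The difference between the genotypes, tested as an interaction in the same limma fit, was called for 240 genes with a more positive and 1273 with a more negative change in null oocytes (2.58% and 11.3% of all tested genes). Set to a common median, the counts were 210 and 250 (1.89% and 2.17% of all), and 184 and 250 genes were called on both scales. Without scaling they were 238 and 418 (2.24% and 3.64% of all). Of the more positive genes 185 rose in null oocytes, and of the more negative genes 1235 fell. The more positive genes numbered 102 without null growing replicate 2, 151 without null GV replicate 2, 153 and 135 without WT growing replicates 1 and 2 and 129 without WT GV replicate 2. The more negative genes numbered 619 without null growing replicate 2, 730 and 794 without WT growing replicates 1 and 2 and 581 without WT GV replicate 1.

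**Figure D4:**
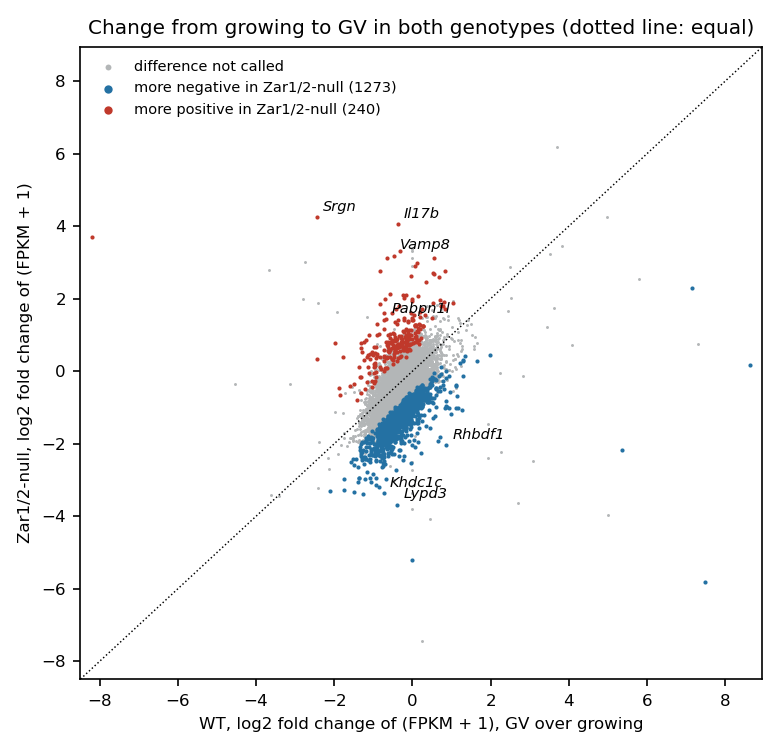
Log2 fold change of FPKM + 1 from growing to GV in Zar1/2-null oocytes (y axis) against WT oocytes (x axis), 1 point per gene, with genes called for a difference between the genotypes in colour and equality as a dotted line. Srgn lies at 4.24 in null and -2.44 in WT, and Lypd3 at -3.68 and -0.39.

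Among genes that passed both tests, the 5 largest positive differences were those of Srgn, Il17b, Pnpla3, Vamp8 and Dnajc5b, with values from 3.61 to 6.68 on the log2 scale. Srgn fell in WT (log2 fold change -2.44) and rose in null oocytes, and the difference was 6.68 ± 0.37 (SE, adjusted p = 4.65e-06, limma). For Vamp8 it was 3.67 ± 0.29 (adjusted p = 8.31e-05, limma). Pabpn1l had a difference of 2.11 ± 0.33 (adjusted p = 0.00353, limma), since it fell in WT and rose in null oocytes. With median scaling these 6 genes were called as well. Of the 12 largest rises all 12 differed between the genotypes, and of the 12 largest falls 11, the exception being Tex19.2 (-0.80 ± 0.44, adjusted p = 0.251, limma). With median scaling Zfp707 was not called either, and these counts share the null libraries with the choice of the genes.

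The 5 largest negative differences belonged to Lypd3, Rhbdf1, Khdc1c, Cd177 and Polr2h. Rhbdf1, an inactive rhomboid that guides membrane proteins through the secretory pathway, was at 34.0 and 29.8 FPKM in growing and 4.24 and 11.3 FPKM in GV null oocytes, and at 15.6 and 10.9 (growing) and 24.5 and 24.8 (GV) FPKM in WT. Null oocytes began above WT and ended below it, a difference of -2.90 ± 0.44 (SE, adjusted p = 0.00302, limma). Cd177, a GPI-linked cell surface glycoprotein, crossed in the same way, from 33.2 and 36.3 to 6.83 and 10.5 FPKM in null and from 7.23 and 8.42 to 13.7 and 12.2 FPKM in WT oocytes (difference -2.57 ± 0.29, adjusted p = 0.000827, limma). Polr2h differed by -2.49 ± 0.30 (adjusted p = 0.00101, limma), with null GV oocytes alone being low.

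No difference between the genotypes was called for the zona genes or Gdf9. For Zp1, Zp2 and Zp3 the differences were -0.16, -0.11 and -0.29, with an SE of 0.33, 0.26 and 0.28, and for Gdf9 -0.31 ± 0.27. A difference was called in 0 and 0 of the 3 zona genes (positive and negative) and 0 and 0 of the 12 NLRP genes. It was called in 1 and 4 of the 23 mRNA storage genes and 0 and 4 of the 76 mitochondrial ribosomal genes. Over all tested genes the shares were 2.58% and 11.3%, and no test compared a list with them. A missed threshold does not show that the genotypes were equal.

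Spliced transcripts were shorter for genes that rose than for genes that fell. The median length of the longest coding transcript was 1772 bases for genes that rose (427 of 497 matched the annotation), 2940.5 for those that fell (6170 of 6345) and 2176 for those not called. With median scaling it was 1779.5 and 2892 bases. Median GC content was 48.7% for genes that rose and 50.2% for genes that fell. For genes past the 3-fold rule upward only 64.7% matched the annotation, so no length is given for them.

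The 6625 genes at 5 FPKM or more in either stage were ordered by length into 10 equal groups. The shortest group (259 to 1000 bases) had a median log2 fold change of -0.10 in null oocytes, the group of 2461 to 2884 bases -0.76 and the longest group -0.59. The change was smallest for the shortest transcripts and largest for those of middle length. In WT oocytes the same groups had -0.036, -0.49 and -0.25, a like shape with smaller changes. Without the ribosomal and respiratory lists the shortest group stood at -0.13 (535 genes). Short transcripts were also the more abundant, with a median of 72.3 FPKM in growing null oocytes in the shortest and 10.6 FPKM in the longest group, and the part of abundance in this pattern was not tested.

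**Figure D5:**
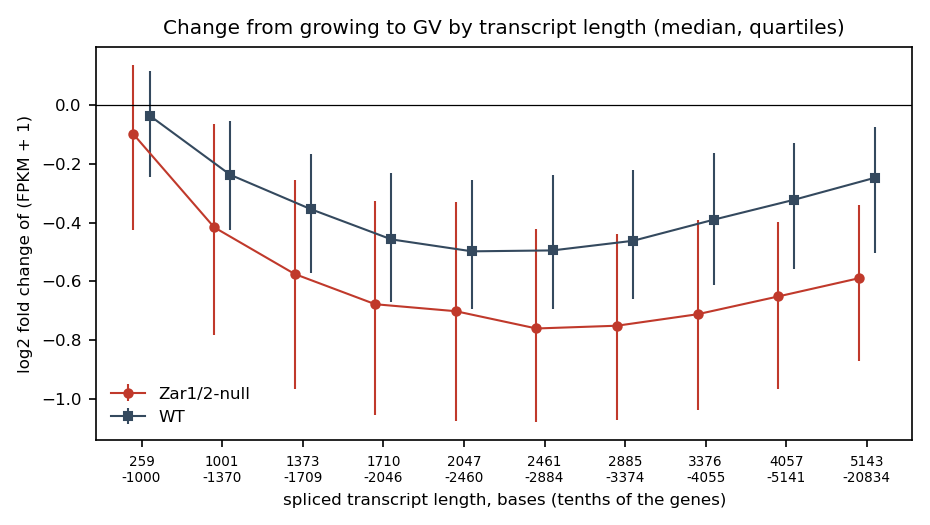
Median (points) and quartiles (bars) of the log2 fold change of FPKM + 1 from growing to GV (y axis) in 10 equal groups of 6625 genes ordered by spliced transcript length in bases (x axis), for Zar1/2-null and WT oocytes. The shortest group lies at -0.10 in null and -0.036 in WT, and the lowest null median is -0.76.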

How the data were processed

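RNA-seq was made from 10 pooled oocytes a library (Smart-seq2, ERCC RNA added at lysis), 2 libraries in each of 6 groups. Per the submitters' notes and the study's methods, the authors aligned reads to mm9 with TopHat2 2.1.1, kept those that mapped to a single place and computed FPKM for UCSC gene models with Cufflinks 2.2.1, then scaled each library by its ERCC reads. The deposited table holds these ERCC-scaled FPKM for 23230 genes in 12 libraries. It holds no read counts, so no counting interval is given. The scaling factors were recovered from the values, which carry 6 significant digits before scaling, and were divided out for the unscaled and median-scaled alternatives. Spike-in scaling carries the error of the spike-in reads into every gene of a library.

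Values were analysed as log2(FPKM + 1), which understates the change of low genes, with limma 3.58.1 in R 4.3.3 (12 libraries, intensity trend) and Benjamini-Hochberg adjustment at 0.05 over the 11502 genes with at least 1 FPKM in any library. Contrasts were null growth, WT growth and their difference. The 3-fold rule compared group means set to at least 1 FPKM. An exact permutation test of 2 against 2 libraries cannot go below 0.333 and was not used. Named genes were the 12 largest rises and falls at 10 FPKM or more, called and with no overlap, the 5 largest differences each way among called genes, the 5 most abundant of each stage, and, from each of 28 lists, the 3 largest and 3 smallest changes at 5 FPKM or more (any member where a list has 12 or fewer). Genes, lists and tests were chosen with earlier results of these data known. Alternatives were scaling, pseudocount, filters, the libraries fitted, the variance trend, a replicate block and leaving out single libraries. Transcripts and 3′ ends are from GENCODE M1 on NCBIM37, the same assembly as mm9. Figures were drawn with matplotlib 3.10.9.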

Additional observations from a re-analysis of the deposited data

Results flagged for a closer look

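Growth from the growing to the GV stage differed between Zar1/2-null and WT oocytes in 240 genes with a more positive and 1273 with a more negative change in null oocytes, by the interaction term of the limma fit (Benjamini-Hochberg, 0.05). With median scaling 210 and 250 genes passed the same test. Differences below are log2 fold change in null minus that in WT, on the ERCC scale. Among named genes the more positive ones were led by Srgn (6.68), Il17b (4.43), Pnpla3 (3.77), Vamp8 (3.67) and Dnajc5b (3.61). The other large rises of null oocytes differed as well, Tex15 (2.86), Cxcr3 (1.92), 1190007I07Rik (2.18), Gm17830 (2.15), Slc23a3 (2.70), Nmu (2.27) and Lmo3 (2.35). So did Pabpn1l (2.11) of mRNA storage and Hormad1 (1.92) of the meiotic chromosome axis.

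The more negative differences were led by Lypd3 (-3.29), Rhbdf1 (-2.90), Khdc1c (-2.63), Cd177 (-2.57) and Polr2h (-2.49). Of the other large falls they were Ublcp1 (-2.1), Uqcrc1 (-1.82), Zfp707 (-1.19), Cct6a (-1.53), Lipt2 (-2.33), B3galnt1 (-2.20), Dpf2 (-1.66), Tgif1 (-1.99) and Rnf6 (-1.77). Among oocyte, chromatin and cell cycle genes they were Tbpl2 (-1.24), Ctnnb1 (-0.69), Zbed3 (-0.89), Patl2 (-1.01), Wee1 (-1.11), Kdm1b (-1.07), Ctcf (-1.28), H2afz (-1.14) and Cd9 (-1.27). Among the other listed genes they were Polr2m (-0.97), Rpl10l (-2.29), Mrps34 (-0.89), Psmd13 (-1.18), Psmb5 (-1.3), Eif1a (-1.17), Pgam1 (-1.31), Krt8 (-1.82) and Slc4a7 (-0.74). With median scaling 13 of these negative differences missed the threshold, with adjusted p-values from 0.0520 to 0.245 (limma, Benjamini-Hochberg), those of Zfp707, Tbpl2, Ctnnb1, Zbed3, Patl2, Wee1, Kdm1b, Cd9, Polr2m, Mrps34, Eif1a, Krt8 and Slc4a7.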

How the results depend on the processing

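Without ERCC scaling, rises and falls numbered 1536 and 2432 in null growth, 336 and 336 in WT growth and 247 and 411 by the 3-fold rule, 418 genes differed negatively between the genotypes, and the null median was -0.11. With median scaling the null counts were 1868 and 1924, the WT falls 226, the negative differences 250, the 3-fold counts 261 and 303 and the null median -0.0022. With the filter raised to a mean of 5 FPKM, which leaves fewer genes, the counts were 205 and 3354 in null, 88 and 1739 in WT, 67 and 248 for the difference and 52 and 308 by the 3-fold rule. With a pseudocount of 0.1 FPKM they were 121 and 2095 in WT and 152 and 631 for the difference, and the null median was -0.67. With no filter on low values 144 WT rises and 146 positive differences were called. In a fit of the 8 growing and GV libraries alone 133 WT rises and 94 and 399 differences were called, and the cause was not tested. The 3-fold counts were 188 and 1436 with a floor of 0.1 FPKM and 220 and 2728 at 2-fold. Leaving out 1 library at a time gave 315 to 560 null rises, 105 to 144 WT rises, 814 to 2782 WT falls, 102 to 327 positive and 581 to 1206 negative differences, 80 to 136 3-fold rises and null medians of -0.59 to -0.52. The lone library of such a group is taken to vary as the others do.

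Of 1441 values of the 131 named genes over these settings, 1284 kept their direction and their side of the threshold. With median scaling the sign turned for Gm15698 (0.40), H1foo (0.26), E330017A01Rik (0.55), Mir762 (0.63), Figla (0.057), Bmp15 (0.031), Mad2l1 (0.66), Dppa3 (0.67) and Folr4 (0.67), and without ERCC scaling for Gm15698 (0.28), H1foo (0.14), E330017A01Rik (0.43), Mir762 (0.51), Mad2l1 (0.54), Dppa3 (0.54) and Folr4 (0.55). Of these, Figla and Bmp15 alone had passed the test. Leaving out a library turned the sign for genes near 0 or with a deviating library, with ranges of -0.28 to 0.028 for E330017A01Rik, -0.65 to 0.56 for Mir762, -0.20 to 0.18 for Mad2l1, -0.16 to 0.14 for Dppa3, -0.19 to 0.19 for Folr4, -0.067 to 0.22 for Ooep, -0.052 to 0.31 for Btg4 and -6.52 to 1.29 for Rps27.

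Replicate numbers were not used as pairs in the main fit. Same-numbered deviations in null growing and GV oocytes had a correlation across genes of -0.0585, and -0.117 to 0.163 over all pairs of groups. Such a correlation cannot exclude pairing. Both WT growing libraries carried a factor of 1 although the paper lists different ERCC shares for them. The WT GV libraries carried 0.836 and 0.697 although it lists the same share for both. The factors thus go with a separate WT growing reference for each replicate number, not with 1 common reference. Replicates 1 and 2 would then stand on different references, which the main fit does not take into account. With the replicate number as a block 566 and 6452 null genes rose and fell, and 3 named genes gained a call. The deposited FPKM give no counts per gene, and what depth limits was not computed.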
